A study of Ziziphus jujuba var. spinosa with 24 samples.

Results

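The catalase gene LOC107419839 was followed through 24 leaf libraries of sour jujube, Ziziphus jujuba var. spinosa, a wild relative of the cultivated jujube. It was taken as 1 gene of the 32527 in the deposited count table, by its identifier, and it was the only gene that the RefSeq table of the ASM3175591v1 assembly pairs with the name catalase. That table gives no descriptions for other genes, so further catalase genes could not be picked out. The libraries came from diploid plants, labelled wild type, and from autotetraploid plants, in which every chromosome set of the species is doubled. Plantlets of both ploidies were tissue-cultured for 30 days and rooted for 45 days. Before treatment they were kept in nutrient solution, 3 days in the dark and 7 days in the light. The light cycle given for all libraries was 16 h of light and 8 h of dark. Polyethylene glycol (PEG6000), which holds water back from roots, was raised from 5% to 20% in daily steps. Leaves were taken from a control and after 6, 12 and 48 h of drought in each ploidy, which gave 8 groups of 3 libraries. Nothing in the labels ties the 3 libraries of a group to separate plants. The p-values therefore rest on the variation among the libraries at hand, and this may be technical. They also give neither the PEG concentration nor the hour of day at each harvest. A difference between treatments can therefore hold a difference in either, and these cannot be told apart.

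Catalase splits hydrogen peroxide into water and oxygen. In green leaves most of the enzyme sits in peroxisomes, where hydrogen peroxide is released by glycolate oxidase during photorespiration, the side reaction of rubisco with oxygen. Catalase transcripts of several plant species are known to follow light and the daily clock, and catalase activity is widely measured in drought studies as a part of the antioxidant defence.

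Library totals ran from 30750412 to 50404402 counts. Catalase received 44510 to 173632 of them, so that counting error alone was 0.24 to 0.474% of the value, far below the spread between libraries. Levels are given as CPM, counts set to a common library total after scaling by trimmed means of M values (TMM). Such a level is relative to the other counts of its library, not an amount per leaf, and the scaling sets it apart from the plain share of counts. The leaf label was checked on the rubisco activase genes RCA1 and RCA2, which serve rubisco in photosynthetic tissue. In the 6 control libraries RCA2 ranked between 1 and 3 of all genes by FPKM, a measure per transcript length, and RCA1 between 13 and 25. The second principal component of all genes held 9.29% of the variance. On it, replicate 3 of the autotetraploid at 12 h stood at −56.8, beside 3.99 and 18.2 in the rest of its group. Replicate 3 of the diploid at 48 h stood at −42.7, beside −8.17 and −3.07. The catalase level of each of these libraries lay with those of its group.

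Catalase was among the most abundant transcripts of these leaves. Its mean of 2503 CPM over the 24 libraries ranked 11 among all genes tested, and by FPKM it ranked 20. It took between 0.133 and 0.381% of all counts of a library. By FPKM it stood at rank 40 to 53 in the diploid libraries at 12 h and 49 to 61 in the autotetraploid ones. At 48 h it had moved up to rank 14 to 17 and 11 to 16.

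In control leaves the level in the 3 diploid libraries was 3108, 2439 and 2380 CPM, with a mean of 2642 ± 404 (SD, n = 3). The autotetraploid controls held 2218, 2232 and 2334 CPM, a mean of 2262 ± 63.4 (SD, n = 3). Replicate 1 of the diploid stood well above the other 5 control libraries.

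After 6 h of drought the diploid libraries held 2128, 3185 and 2795 CPM, a mean of 2702 ± 534 (SD, n = 3) and the widest spread of the 8 groups. The autotetraploid libraries held 2176, 2462 and 2395 CPM, a mean of 2344 ± 149 (SD, n = 3). In both ploidies the 6 h libraries overlapped those of the control.

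At 12 h the level was lower in every library than in any library of another time. The diploid libraries held 1642, 1284 and 1488 CPM, a mean of 1471 ± 180 (SD, n = 3). The autotetraploid libraries held 1207, 1330 and 1337 CPM, a mean of 1291 ± 73.3 (SD, n = 3).

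At 48 h the level was above that of every control and 6 h library. The diploid libraries held 3630, 3526 and 3426 CPM, a mean of 3527 ± 102 (SD, n = 3). The autotetraploid libraries held 4081, 3507 and 3761 CPM, a mean of 3783 ± 288 (SD, n = 3). The highest library thus held 3.38 times the level of the lowest, and the highest group mean 2.93 times the lowest.

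**Figure D1:**
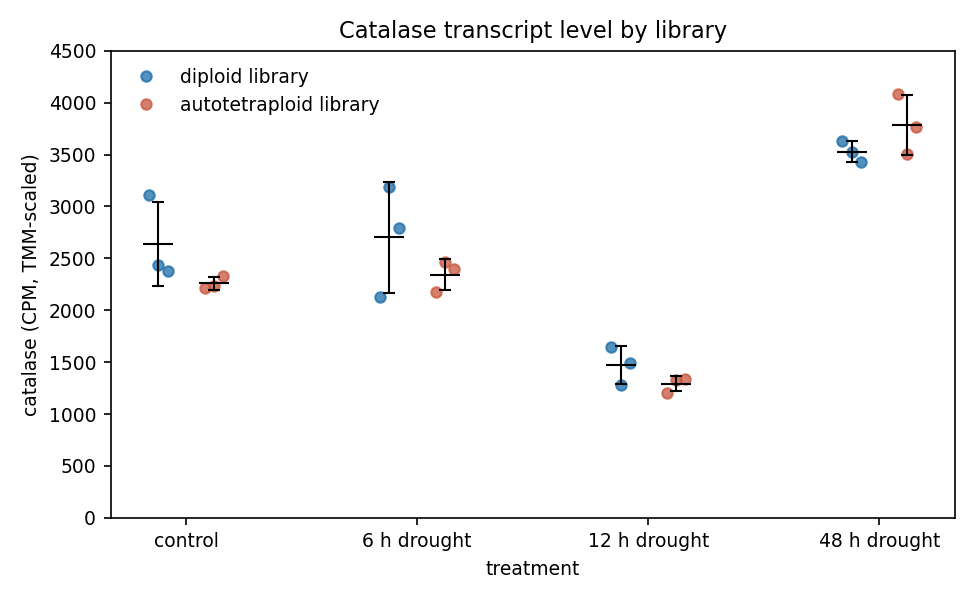
Catalase level (CPM, TMM-scaled, axis from 0) in each of the 24 libraries by treatment, with the mean (bar) and SD (whisker) of each group of 3. The 6 libraries at 12 h lie between 1207 and 1642 CPM, below all others, and the 6 at 48 h between 3426 and 4081 CPM, above all others.

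Drought was compared with the control first, to ask when catalase transcripts changed. At 6 h no change passed edgeR's quasi-likelihood test, although 21.3% of the 25829 genes tested were called in the diploid and 25.1% in the autotetraploid. The log2 fold change was 0.03 ± 0.13 in the diploid (SE, adjusted p = 0.904), with a 95% interval from −0.24 to 0.30. In the autotetraploid it was 0.05 ± 0.13 (SE, adjusted p = 0.834), with an interval from −0.22 to 0.32. A change of the size seen at 12 h lies outside both intervals.

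At 12 h catalase fell in both ploidies. In the diploid the log2 fold change was −0.84 ± 0.13 (SE, adjusted p = 5.8e-05), which left 0.557 of the control level, with a 95% interval from 0.461 to 0.672. In the autotetraploid it was −0.81 ± 0.13 (SE, adjusted p = 9.4e-05), which left 0.571 of the control level. Without replicate 3 of the autotetraploid at 12 h the latter was −0.83. Calls were common in these comparisons, with 30.2% of the genes tested called in the diploid (14.6% higher and 15.5% lower) and 29.6% in the autotetraploid (14% higher and 15.6% lower). Among the 56 genes with a mean of at least 1000 CPM, catalase included, 28 were lower and 7 higher in the diploid, and 30 lower and 6 higher in the autotetraploid. The fold change of catalase was above the median size but not among the largest, with 26.3% and 28.2% of all genes changing by more on the log2 scale.

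At 48 h the autotetraploid held more catalase transcript than its control. The log2 fold change was 0.74 ± 0.13 (SE, adjusted p = 0.0015), a level 1.67 times the control. Of the genes tested, 13.5% were called in that comparison, 6.08% higher and 7.43% lower. In the diploid the level was 1.33 times the control. Its log2 difference of 0.42 ± 0.13 (SE) missed the threshold with an adjusted p of 0.0915, in a comparison where 2.01% of genes were called, 1.1% higher and 0.91% lower. The diploid groups did not overlap, and the 95% interval ran from 0.15 to 0.69. The diploid difference stayed short of the threshold under 8 of the 12 alternative settings, with an adjusted p of up to 0.264. It was called by DESeq2 (adjusted p = 0.0269), which called 1835 genes in this comparison where edgeR called 520. It was also called by limma on the FPKM values (adjusted p = 0.0466). With single libraries removed, edgeR gave no call in 5 of 6 cases (adjusted p up to 0.254). The exception was the removal of replicate 1 of the diploid control, the highest of the 6 control libraries (0.55, adjusted p = 0.0318). Of the 56 abundant genes, 1 was called higher at 48 h in the diploid and 7 in the autotetraploid.

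The steps between the drought times followed. They share libraries with the comparisons above and add no independent evidence on the 12 h level. From 6 to 12 h catalase fell by 0.88 on the log2 scale in the diploid (adjusted p = 0.00013) and by 0.86 in the autotetraploid (adjusted p = 0.00019). The call was rarer here, with 8.06% and 8.05% of all genes called. Among all genes tested, catalase ranked 453 and 396 by p-value.

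From 12 to 48 h it rose in both ploidies, by more than at any other step within a ploidy. The log2 fold change was 1.26 ± 0.13 in the diploid (SE, adjusted p = 5.5e-07), or 2.40-fold. In the autotetraploid it was 1.55 ± 0.13 (SE, adjusted p = 3.4e-08), or 2.93-fold. All 3 libraries at 48 h stood above all 3 at 12 h in each ploidy. A share of 26.2% of all genes was called in the diploid and 30.4% in the autotetraploid.

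The 48 h level was also above the 6 h level in the autotetraploid, by 0.69 ± 0.13 on the log2 scale (SE, adjusted p = 0.00056), with 26.3% of genes called. In the diploid the same step was 0.38 ± 0.13 (SE, adjusted p = 0.041), with 20.3% called. That diploid call ended in 5 of the 6 fits that left out a library (without replicate 1 or 3 at 6 h, or without replicate 1, 2 or 3 at 48 h), with values from 0.25 to 0.41. It also ended when the model held just those 6 libraries, with an adjusted p of 0.141, and with the replicate number as a block, with an adjusted p of 0.0609.

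**Figure D2:**
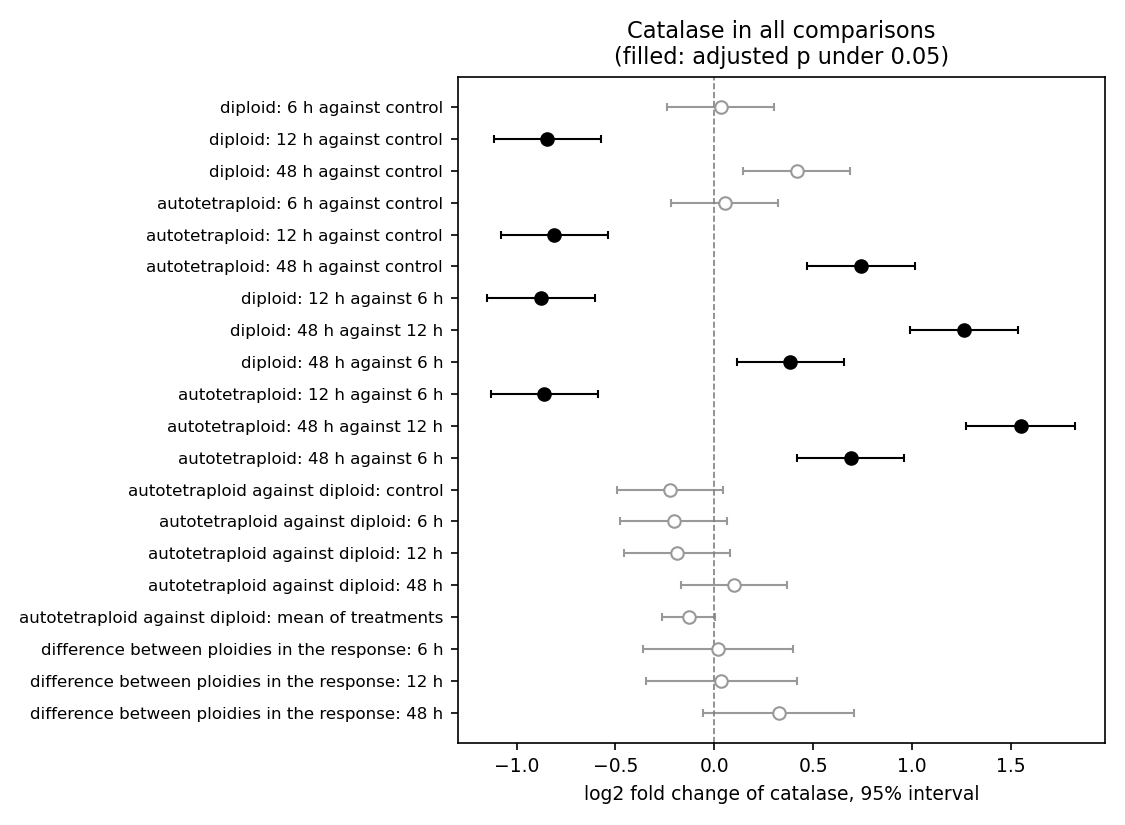
Log2 fold change of catalase with its 95% interval in the 20 comparisons made, filled where the adjusted p was under 0.05. The falls to 12 h lie between −0.88 and −0.81 in both ploidies, and the rises from 12 to 48 h at 1.26 and 1.55 are the largest changes.

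The ploidies were then compared under the same treatment, the question raised by the title of the series, which concerns the greater drought tolerance of the autotetraploid. Catalase did not differ at the threshold under any treatment. In the controls the log2 difference, autotetraploid minus diploid, was −0.22 ± 0.13 (SE, adjusted p = 0.663), with a 95% interval from −0.49 to 0.04. The 3 autotetraploid controls all lay below the 3 diploid ones, the nearest being 2334 and 2380 CPM. At 6 h the difference was −0.21 ± 0.13 and at 12 h −0.19 ± 0.13 (SE, adjusted p = 0.775 and 0.981), and the libraries overlapped at both times. At 48 h it had the other sign, 0.10 ± 0.13 (SE, adjusted p = 0.928), and the libraries overlapped again. Averaged over the 4 treatments it was −0.13 ± 0.06 (SE, adjusted p = 0.384), with an interval from −0.26 to 0.0054. Few genes were called between the ploidies, 0% in the controls and at 6 h, 0.0194% at 12 h, 0.139% at 48 h and 0.403% over the treatments. With no difference in any gene, a share near 0.05 would have an unadjusted p under 0.05. The counts of 0 by edgeR stood beside 2230 such genes (8.63%) in the controls and 1919 (7.43%) at 6 h. DESeq2 called 175 and 115 genes there, and limma 3 and 0.

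Whether the ploidies responded differently to drought was tested as an interaction. The response at 48 h was larger in the autotetraploid by 0.33 ± 0.18 on the log2 scale (SE, adjusted p = 0.825), with a 95% interval from −0.06 to 0.71. The call of catalase at 48 h in the autotetraploid and the missing call in the diploid are thus not shown to differ. At 12 h the responses differed by 0.04 ± 0.18 (SE, adjusted p = 1), with an interval from −0.34 to 0.42, and at 6 h by 0.02 ± 0.18 (SE, adjusted p = 1). None of these interactions called any gene by edgeR (0%). An unadjusted p under 0.05 was held by 1650 genes (6.39%) at 6 h, 1211 (4.69%) at 12 h and 1626 (6.3%) at 48 h. With no difference in any gene, a share near 0.05 would be expected. DESeq2 called 98, 80 and 162, and limma 0 at each time.

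Ordered by mean level, the groups ran from the autotetraploid at 12 h and the diploid at 12 h, through the autotetraploid control, the autotetraploid at 6 h, the diploid control and the diploid at 6 h, to the diploid at 48 h and the autotetraploid at 48 h. The deposited FPKM values gave the same order, from a mean of 631 ± 33.7 to 1595 ± 91.5 FPKM (SD, n = 3). Of the 7 neighbouring pairs in this order, 2 differed at the threshold. The step from the diploid at 12 h to the autotetraploid control had a log2 difference of 0.62 ± 0.13 (SE, adjusted p = 0.0012), with 29.3% of all genes called between these groups. The other was the step from the diploid at 6 h to the diploid at 48 h, whose call rested on single libraries as described, so that the count was 1 in many of the fits without a library. The autotetraploid at 6 h and the diploid control, which differ in both ploidy and treatment, were not called apart in catalase (adjusted p = 0.36), while 26.6% of all genes were. The 4 groups in the middle overlapped from one neighbour to the next, and so did the pair of groups at 12 h and the pair at 48 h. By level the groups thus fell into 3 tiers, the 12 h groups, the control and 6 h groups, and the 48 h groups. The pairs were picked by their levels, and the count is a description. Of all 28 pairs of groups, 19 differed at the threshold. The diploid control and the diploid at 48 h, of different tiers, were among the 9 pairs not called (adjusted p = 0.0915). The tiers were therefore not fully told apart in the diploid.

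The spread between libraries of a group was below the median of the abundant genes. The coefficient of variation within groups was 10.7%, where the median of the 56 genes with at least 1000 CPM was 15.4%, and 14 of them had a lower value. It ranged from 2.8% in the autotetraploid controls to 19.8% in the diploid at 6 h. Differences between the 8 groups made up 94.1% of the variance of log2 CPM over the 24 libraries, beside a median of 80.4% for the 56 genes, 14 of which had a higher share.

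Besides catalase, the reference table names 17 of the genes tested. They are of mixed roles, among them actin, tubulin and elongation factors, expansins and an aquaporin, and are not a set of genes related to catalase. At 12 h in the diploid, 9 of the 17 were lower and 1 higher, beside 15.5% and 14.6% of all genes. At 12 h in the autotetraploid, 8 were lower and 0 higher, beside 15.6% and 14%. At 48 h in the diploid, 1 was lower and 0 higher, beside 0.91% and 1.1%, and in the autotetraploid 3 were lower and 1 higher, beside 7.43% and 6.08%. Their median log2 fold change at 12 h was −0.35 in the diploid and −0.40 in the autotetraploid, beside 0.00 and 0.02 for all genes tested.

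The antioxidant genes looked up by name were GSTU1, a tau-class glutathione transferase, and GMP, GDP-mannose pyrophosphorylase of the ascorbate pathway. GSTU1 rose by 1.02 on the log2 scale at 6 h in the autotetraploid (adjusted p = 0.0222), when catalase did not pass. In the diploid the GSTU1 change at 6 h was 0.20 and not called (adjusted p = 0.721). The interaction at 6 h called neither gene, so the ploidies are not shown to differ. Neither gene was called against the control at 12 or 48 h in either ploidy. Between drought times, GMP rose by 0.55 from 12 to 48 h in the diploid (adjusted p = 0.0394), and GSTU1 fell by 1.13 from 6 to 48 h in the autotetraploid (adjusted p = 0.0116). GSTU1 had log2 fold changes of 0.43 and 0.65 at 12 h (adjusted p = 0.322 and 0.127), and GMP of −0.21 and −0.40 (adjusted p = 0.442 and 0.121), for the diploid and the autotetraploid. PPO, a polyphenol oxidase that oxidises phenolics, was not called at any time either.

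The named gene closest to catalase in its pattern was RCA1, the chaperone that frees the active site of rubisco. Its log2 CPM correlated with that of catalase at r = 0.938 over the 24 libraries, rank 42 among 16382 genes with a mean of at least 5 CPM. RCA2 stood at r = 0.891. The 24 points share the group structure and are given as a description. At 12 h RCA1 fell by 3.94 on the log2 scale in the diploid and by 4.13 in the autotetraploid (adjusted p = 2.3e-10 and 1.4e-10), beside falls of 0.84 and 0.81 for catalase. Per transcript length, catalase and RCA1 stood close to each other in the diploid controls, at 1126 ± 165 and 1287 ± 256 FPKM (SD, n = 3). At 12 h they stood at 689 ± 64.1 and 91.6 ± 9.23 FPKM (SD, n = 3). The genes also parted at 6 h, where RCA1 fell by 0.66 in the diploid and by 1.04 in the autotetraploid (adjusted p = 0.0256 and 9e-04) while catalase passed in neither. Like catalase, RCA2 was not called at 6 h, at 0.46 and 0.32 (adjusted p = 0.115 and 0.285). Its log2 fold changes at 12 h were −1.61 and −2.24 (adjusted p = 7.5e-06 and 1.6e-07). At 48 h RCA1 was higher in the autotetraploid, at 0.75 (adjusted p = 0.0211), and not called in the diploid, at 0.40 (adjusted p = 0.294). RCA2 was called in neither at 48 h, at 0.22 and 0.38 (adjusted p = 0.618 and 0.228).

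The likeness held within groups too. Taken as deviations from the group means, catalase and RCA1 correlated at r = 0.812, and catalase and RCA2 at r = 0.77, over the 24 libraries. The diploid libraries at 6 h show it, where RCA1 stood at 1310, 2455 and 2130 CPM in the libraries that held 2128, 3185 and 2795 CPM of catalase. In the diploid controls RCA1 was likewise highest in replicate 1, at 3782 CPM, beside 2976 and 2567. The autotetraploid at 12 h went the other way, with the lowest RCA1 value, 128 CPM, in the library with the most catalase. In bulk leaf RNA, fewer cells of a type and less RNA per cell cannot be told apart. Whether library differences in leaf tissue take part in the spread of catalase was not tested.

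**Figure D3:**
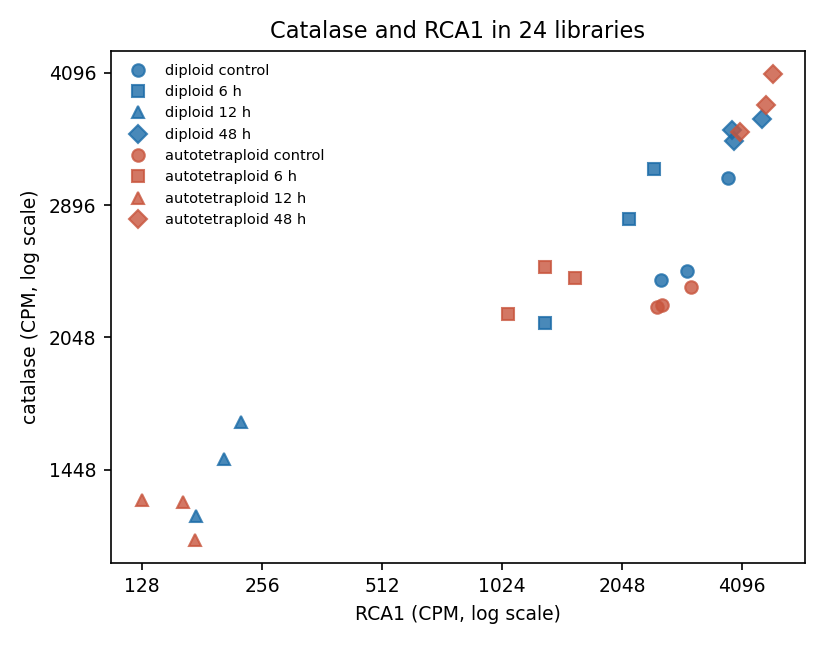
Catalase against RCA1 in the 24 libraries (CPM, both axes logarithmic), by ploidy (colour) and treatment (symbol). The 6 libraries at 12 h lie apart at the lower left, where RCA1 is at most 227 CPM, and the control and 6 h libraries share their range of catalase while differing in RCA1.

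Catalase was next expressed relative to 5 genes often used as constant references in quantitative PCR. GAPDH, a glycolytic dehydrogenase, and the alpha-tubulin gene TUA were themselves lower at 6 and 12 h. GAPDH had log2 fold changes of −0.57 and −0.99 in the diploid at 6 and 12 h, and of −0.55 and −1.05 in the autotetraploid. At 48 h GAPDH was not called, at 0.01 and 0.03 (adjusted p = 0.979 and 0.848), while TUA was still lower, at −0.57 and −1.03 (adjusted p = 0.0405 and 0.00045). EF1-alpha, an elongation factor of translation, was lower at 12 h, at −0.35 and −0.28 (adjusted p = 0.0117 and 0.0426), and neither call held when libraries were scaled by their totals alone (adjusted p = 0.109 and 0.37). The EF1-alpha call in the autotetraploid also ended with upper quartile scaling (adjusted p = 0.0847). EF1-gamma was higher at 12 h in the diploid, at 0.23 (adjusted p = 0.0094), and at 0.15 in the autotetraploid it was not called (adjusted p = 0.0932). The latter was called with upper quartile scaling (0.20, adjusted p = 0.0276) and with library totals alone (0.30, adjusted p = 0.0046). With DESeq2 size factors it stayed uncalled (adjusted p = 0.0882). Actin (ACT1) was not called against the control at any time. None of these called values of the reference genes changed sign under the 3 other scalings. Per GAPDH, the fall of catalase at 12 h was not seen. The log2 ratio to GAPDH changed by 0.14 in the diploid, where the libraries overlapped, and by 0.24 in the autotetraploid, where all 3 libraries at 12 h stood above the controls. Per TUA the changes were −0.21 and −0.03, with overlap in both ploidies.

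Per ACT1 and per EF1-gamma, the change at 12 h was close to that in CPM. It was −0.87 and −0.93 per ACT1 and −1.08 and −0.96 per EF1-gamma, for the diploid and the autotetraploid, with no overlap. Per EF1-alpha it was −0.50 and −0.52, and the diploid libraries overlapped. At 6 h the ratio to GAPDH was higher than in the controls by 0.59 and 0.60 and that to TUA by 0.56 and 0.83, with no overlap in either ploidy, at a time when the level in CPM had not changed at the threshold. The other references gave other values at 6 h. Per ACT1 the ratio changed by −0.31 and −0.30, per EF1-gamma by −0.0005 and 0.12, and per EF1-alpha by 0.29 and 0.28. Of these, the EF1-alpha ratio in the autotetraploid alone had no overlap with the controls. At 48 h in the autotetraploid the ratio was above the control with no overlap for each of the 5 genes, by 0.56 per EF1-gamma to 1.76 per TUA. In the diploid it was higher by 0.23 per EF1-gamma, with overlap, and by 0.42 to 1.01 per the other 4 genes, without overlap. These ratios were not tested.

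**Figure D4:**
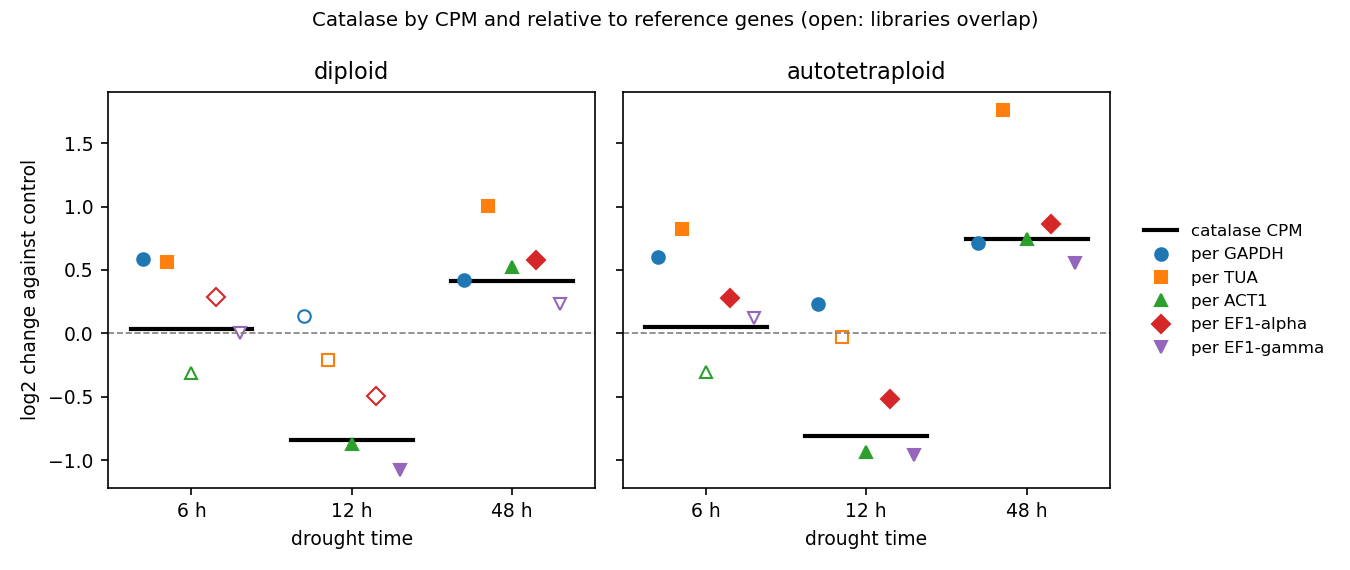
Log2 change of catalase against the control at 6, 12 and 48 h, as the fitted change in CPM (black line) and as the change of the mean log2 ratio to each of 5 reference genes (symbols, open where the 3 drought libraries overlap the 3 controls). At 12 h the 5 ratios spread from −1.08 to 0.14 in the diploid and from −0.96 to 0.24 in the autotetraploid.

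Among all genes, 210 of 16382 (1.28%) correlated with catalase at r over 0.9, and 13 at r under −0.9. The gene most like it was LOC107430548, at r = 0.969 over the 24 libraries. Its mean was 355 CPM in the diploid control and 165 CPM at 12 h, and 487 CPM at 48 h. In the autotetraploid it was 345, 150 and 577 CPM. The next was LOC107435761, at r = 0.967, with means of 400, 223 and 551 CPM in the diploid and 325, 183 and 606 CPM in the autotetraploid at the same times. Within groups their deviations correlated with those of catalase at r = 0.511 and 0.788.

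The gene most opposite was LOC107403865, at r = −0.949. It rose from a mean of 3.66 CPM in the diploid control to 12.0 CPM at 12 h and stood at 3.70 CPM at 48 h. In the autotetraploid these means were 6.18, 14.9 and 2.84 CPM. LOC107416292 followed at r = −0.927, with 32.4, 52.6 and 23.6 CPM in the diploid and 36.9, 68.0 and 28.4 CPM in the autotetraploid. No source used here pairs these 4 identifiers with names, and the correlations are a description of these libraries.

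**Figure D5:**
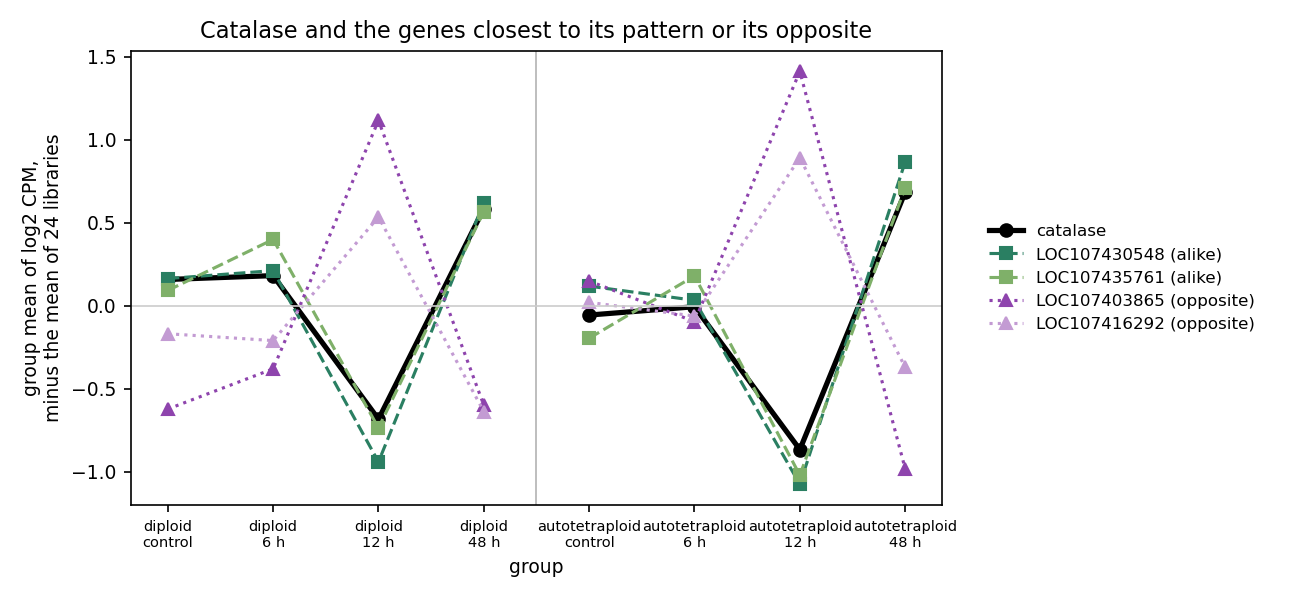
Group means of log2 CPM, centred on the mean of the 24 libraries, for catalase, the 2 genes most like it and the 2 most opposite, in the order control, 6, 12 and 48 h within each ploidy. Catalase and both alike genes are lowest at 12 h and highest at 48 h in each ploidy, and both opposite genes are highest at 12 h.

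The genes beside catalase on its chromosome, chosen by place in the ASM3175591v1 assembly and not by their values, did not share its pattern in full. No gene of the reference table overlapped catalase there. That table held 19767 of the 29293 identifiers of the count table that start with LOC. Genes missing from it could overlap catalase or lie nearer than those named here. LOC107419823, the neighbour on one side, fell from 86.7 ± 18.5 to 43.7 ± 5.87 CPM at 12 h in the diploid (SD, n = 3; adjusted p = 0.00043) and from 96.8 ± 9.6 to 50.9 ± 17.8 CPM in the autotetraploid (SD, n = 3; adjusted p = 0.00077). Unlike catalase it was already lower at 6 h, by 0.72 and 0.88 on the log2 scale (adjusted p = 0.0084 and 0.0015). At 48 h it was not called, with log2 fold changes of 0.24 and 0.18. LOC107419822, the next gene on that side, rose at 12 h by 1.00 and 0.68 on the log2 scale (adjusted p = 0.0015 and 0.022). On the other side the first gene had 46 counts over all libraries and was not tested. The second there, LOC107419780, was lower at 12 h, at −0.81 and −1.33 on the log2 scale (adjusted p = 0.0286 and 0.001). In the autotetraploid it was also lower at 6 h, at −1.02 (adjusted p = 0.0088), and at 48 h, at −1.24 (adjusted p = 0.0064), when catalase was higher.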

How the data were processed

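RNA-seq of leaves from 24 libraries in 8 groups of 3 was analysed. Whole-number counts per gene and library were deposited without normalization, per the file headers. FPKM values, which divide fragments by library total and transcript length, were deposited by the authors in 1 table per group. These list genes reaching 0.1 in at least 1 of its libraries. The ratio of counts to FPKM, divided by the library total, was taken over 8636 genes with more than 500 counts in every library. Relative to each gene's own median, it had library medians of 0.991 to 1.03. HISAT2 and StringTie are named in the submitters' processing notes, without versions. Build, annotation, tool versions and strand setting: not given in the sources used here. No coordinates are printed for that reason. Reads shared with a near-identical copy would make the catalase counts uncertain.

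The count table was fitted with edgeR 4.0.16 under R 4.3.3. The filterByExpr filter kept 25829 genes, which were scaled by TMM and fitted with 1 mean per group over all 24 libraries and robust dispersions. Each contrast had a quasi-likelihood test, and p-values were adjusted after Benjamini and Hochberg across the 25829 genes and called under 0.05. DESeq2 1.42.0 and limma 3.58.1 on log2(FPKM + 1) served as alternatives, beside other scalings, filters, leaving out each library and a replicate block. SEs are the fold change divided by the square root of the F statistic. Likeness was Pearson's r of log2 CPM with a prior count of 2, and 2 genes were named in each direction. Genes on either side of catalase were named by place. The member, lists and tests were chosen with earlier results of these data known. The reference table gives no descriptions, so lists by description were reduced to the 18 tested genes that it names.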

Additional observations from a re-analysis of the deposited data

How the results depend on the processing

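Of the 20 comparisons of catalase, 18 kept their direction and their side of the threshold under all 12 alternatives of scaling, filter, tool, samples in the model, dispersion and block. The falls at 12 h ranged from −0.85 to −0.70 in the diploid and from −0.81 to −0.63 in the autotetraploid. The smaller values came with library totals alone (−0.72 and −0.66) and with limma on FPKM, settings that raised the median of all genes by up to 0.16 on the log2 scale. With library totals alone, 64.1% of the genes called at 12 h in the diploid were higher, beside 48.5%. The diploid change from control to 48 h was called by DESeq2 (0.41) and by limma on log2(FPKM + 1) with and without a filter (0.43) and on log2(FPKM + 0.1) (0.43). It stayed uncalled under the other 8 alternatives. Leaving out single libraries gave 0.35 to 0.55, and the call appeared only without diploid control replicate 1. The diploid change from 6 to 48 h lost its call with the replicate block (0.38) and with only the libraries compared (0.39), and it ranged from 0.25 to 0.51 without single libraries. The cause was not tested.

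Leaving out a library turned the sign of values near 0 that were never called. For the diploid at 6 h, leaving out replicate 2 of its control gave −0.02, replicate 3 of its control −0.04 and replicate 2 at 6 h −0.10, in a range of −0.10 to 0.17. The interaction at 6 h became −0.10 when the first diploid control was left out, −0.11 for the first diploid library at 6 h and −0.0041 for the autotetraploid library numbered 2 at 6 h, up to 0.16. The interaction at 12 h became −0.088 when the first diploid control was left out and −0.05 for the diploid library numbered 2 at 12 h, up to 0.13. The count of neighbouring groups that differed was 1 in place of 2 with the replicate block and with only the libraries compared, and 1 to 2 without single libraries.

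Of the 10 genes most alike or opposite, 5 were shared with Spearman's rho, 1 with the diploid libraries, 5 with the autotetraploid libraries, 1 with the 8 group means and 6 with library totals alone. So the naming of these genes depended on the measure. Replicate numbers did not pair the samples: over 16 pairs of groups, libraries of the same number had deviations that correlated at −0.10 to 0.07. The block changed no other call.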
